A study of Mus musculus with 12 samples.

Results

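Unfolded protein and integrated stress genes were followed in spheroids of primary mouse hepatocytes over 14 days of culture. The 10 genes were taken by name, 10 of the 11861 genes with a probe set on the arrays: the chaperones Sdf2l1, Creld2 and Hspa5, the transcription factors Xbp1 and Atf4, and the ATF4 target genes Ddit3, Trib3, Asns, Chac1 and Vldlr. Ddit3 had a second probe set, and the brighter of the pair was used. Spheroids, aggregates that hepatocytes form in wells they cannot attach to, were grown from 4 preparations, 2 male and 2 female, and each was read on an array at days 1, 7 and 14 after the spheroids had formed. Each preparation was a frozen pool of hepatocytes from 3 C57BL/6 mice, an inbred strain. No preparation had a genetic change or an agent named in the labels, and the age of the mice is not given in the sources used here. The 6 groups of male or female spheroids at culture days 1, 7 and 14 therefore held 2 arrays each, all from thawed, pooled cells, so that p-values reflect the spread between pools and not between single mice.

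Secretory cells such as hepatocytes fold large amounts of protein in the endoplasmic reticulum. When unfolded protein builds up there, the sensor ATF6 is cut to a transcription factor, the sensor IRE1 splices the mRNA of XBP1 into its active form, and the sensor PERK phosphorylates the translation factor eIF2. ATF6 and spliced XBP1 act on genes of chaperones and of the disposal of misfolded protein. Phosphorylated eIF2, which kinases sensing amino acid shortage, viral RNA or haem shortage produce as well, favours translation of the ATF4 mRNA, and ATF4 acts on genes of amino acid supply, redox balance and cell death. Both ATF4 and XBP1 are controlled largely after transcription, and the array values of Atf4 and Xbp1 do not show translation or splicing.

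Levels are deposited log2 values after RMA, a method that corrects background, normalizes the arrays to each other and summarizes the probes of a set. A change of 1 is a doubling, and levels of different genes are not compared because probe sets differ in brightness. Array medians lay between 7.47 and 7.53. Of the hepatocyte markers, Alb, the plasma protein albumin, stood at 12.73 ± 0.015, 12.76 ± 0.018 and 12.74 ± 0.030 at days 1, 7 and 14 (SD, n = 4). Cyp2e1, a cytochrome P450 of mature hepatocytes, was dim at 5.57 ± 0.77, 5.60 ± 1.81 and 4.41 ± 1.90. The mean level of the 9 hepatocyte markers ran from 11.1 to 11.4 over the arrays of day 1, from 11.1 to 11.5 at day 7 and from 10.9 to 11.4 at day 14. Markers of other liver cells moved over the same days. The mean of 15 stellate cell and fibroblast markers lay at 7.14 to 7.30 at day 1, 5.82 to 6.65 at day 7 and 4.46 to 6.87 at day 14, and that of the 9 measured of 14 endothelial markers at 5.64 to 6.38, 4.83 to 6.32 and 4.09 to 5.72. The 12 measured of 15 Kupffer cell markers averaged 4.04 to 5.22, 4.91 to 6.40 and 4.89 to 6.99, and the 5 measured of 10 cholangiocyte markers 6.91 to 7.19, 7.32 to 7.36 and 7.31 to 7.77. Of the 12 listed lymphocyte markers 0 were among the 11861 genes, so their levels could not be read. No marker of a measured list is at 0, since the scale has no zero level. In bulk RNA fewer cells of a type and less RNA per cell cannot be told apart.

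Where a match was found, in 2 of 3 chaperones and 4 of 5 ATF4 targets, the promoters of these sets held different elements. Windows of RefSeq promoters, from 250 bases before to 50 after a gene's start (assembly GRCm38.p6), were found for 10 of 10 genes, as 11 windows. They were searched on both strands for 4 motifs of the pathway. The ER stress element, at which ATF6 binds together with NF-Y, was searched as CCAAT and CCACG with 9 bases between them, and its second form as ATTGG and CCACG with 1 base between them. The unfolded protein response element was searched as TGACGTGG and the CEBP-ATF response element, read by ATF4, as TGATGNAA. The ER stress element stood in Hspa5, at bases -65 to -47 from the start, and in Creld2, at -126 to -108 on the reverse strand, against 0.119% of all 32851 promoter windows. The CEBP-ATF response element stood in Asns at -23 to -16, in Chac1 at -193 to -186 on the reverse strand, in the second window of Vldlr at -200 to -193 on the reverse strand, and in Trib3 after the start, at bases 15 to 22 on the reverse strand, against 3.97% of all windows. None of the 11 windows held the second form of the ER stress element or the unfolded protein response element, found in 0.0365% and 0.676% of all windows. Sdf2l1, Ddit3, Atf4 and Xbp1 held none of the 4, which says only that these letters are not in their windows. A match is a description of the sequence and not a bound site.

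The 250 bases before the start are shown for 2 chaperones with the ER stress element, for Sdf2l1, the chaperone that lacks it, and for the ATF4 targets Chac1 and Asns. For Vldlr 30 bases around the match are shown, since its second window lies inside the gene. Capitals mark the matched element. The sequences, from RefSeq, are written 5′ to 3′ on the gene's strand and lie at chr2:34771840-34772089 (plus strand), chr15:88819396-88819645 (plus), chr16:17132384-17132633 (minus), chr2:119350992-119351241 (plus), chr6:7693210-7693459 (minus) and chr19:27216809-27216838 (plus) in GRCm38.p6.
Hspa5: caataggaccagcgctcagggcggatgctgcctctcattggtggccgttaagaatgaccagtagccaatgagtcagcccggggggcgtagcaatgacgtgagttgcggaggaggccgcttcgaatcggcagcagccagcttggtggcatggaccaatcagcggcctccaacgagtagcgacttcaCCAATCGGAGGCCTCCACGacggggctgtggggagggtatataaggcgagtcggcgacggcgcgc
Creld2: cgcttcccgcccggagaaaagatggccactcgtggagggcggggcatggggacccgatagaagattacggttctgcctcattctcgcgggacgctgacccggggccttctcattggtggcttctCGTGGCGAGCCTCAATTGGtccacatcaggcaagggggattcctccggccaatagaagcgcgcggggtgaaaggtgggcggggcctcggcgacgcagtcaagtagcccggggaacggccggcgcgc
Sdf2l1: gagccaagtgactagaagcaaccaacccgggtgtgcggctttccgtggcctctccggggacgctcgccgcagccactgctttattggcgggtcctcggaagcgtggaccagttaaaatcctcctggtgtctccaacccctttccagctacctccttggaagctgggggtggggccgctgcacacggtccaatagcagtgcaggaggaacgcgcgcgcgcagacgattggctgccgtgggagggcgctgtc
Chac1: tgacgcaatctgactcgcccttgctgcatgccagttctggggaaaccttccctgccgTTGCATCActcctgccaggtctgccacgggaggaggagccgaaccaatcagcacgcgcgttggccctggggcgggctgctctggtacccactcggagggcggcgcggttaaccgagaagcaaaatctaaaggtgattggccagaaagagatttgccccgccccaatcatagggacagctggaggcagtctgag
Asns: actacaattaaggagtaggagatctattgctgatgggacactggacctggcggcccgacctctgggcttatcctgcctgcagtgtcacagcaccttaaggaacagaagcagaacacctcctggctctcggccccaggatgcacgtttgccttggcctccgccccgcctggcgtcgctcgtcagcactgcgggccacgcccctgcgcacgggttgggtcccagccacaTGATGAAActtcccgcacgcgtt
Vldlr: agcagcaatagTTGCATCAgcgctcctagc

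The chaperones Sdf2l1 and Creld2 fell in the first week and were still lower at day 14. Sdf2l1 encodes a protein of the endoplasmic reticulum that works with the chaperone BiP and its DnaJ partners. At day 1 its level was 9.98 and 9.90 in the males (preparations 1 and 2, in that order throughout) and 10.15 and 9.79 in the females. At day 7 it was 9.50 and 9.49 in the males and 8.98 and 9.29 in the females, and at day 14 it was 9.02 and 9.23 in the males and 9.42 and 9.41 in the females. Every array of days 7 and 14 lay below every array of day 1. The change was -0.64 ± 0.10 (SE) at day 7 against day 1, 0.642 times the day 1 level, and -0.68 ± 0.10 at day 14 against day 1, 0.622 times (limma, adjusted p = 0.0134 and 0.00356). Female preparation 1 had the largest first week change of the 4, -1.17, against -0.41 to -0.50 in the other preparations.

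Creld2, a resident of the endoplasmic reticulum with disulfide isomerase activity, stood at 10.18 and 10.02 in the males and 10.14 and 9.91 in the females at day 1. Its levels were 9.59 and 9.65 in the males and 9.42 and 9.34 in the females at day 7, then 9.54 and 9.40 in the males and 9.63 and 9.61 in the females at day 14. Here too no array of a later day reached the lowest of day 1. The change was -0.56 ± 0.07 at day 7 and -0.52 ± 0.07 at day 14 against day 1, 0.678 and 0.699 times the day 1 level (limma, adjusted p = 0.00695 and 0.00306).

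Hspa5 encodes BiP, the main Hsp70 chaperone of the endoplasmic reticulum. Its levels were 12.43 and 12.40 in the males and 12.45 and 12.29 in the females at day 1, 12.35 and 12.30 in the males and 12.18 and 12.24 in the females at day 7, and 12.31 and 12.23 in the males and 12.27 and 12.25 in the females at day 14. All 4 preparations were lower on both later days than at day 1, and the ranges of the days overlapped. The change was -0.12 ± 0.06 at day 7 (95% interval -0.26 to 0.01) and -0.13 ± 0.06 at day 14 (-0.26 to 0.01) and did not pass (limma, adjusted p = 0.289 and 0.199). The gene lies above 12 on every array, among 55 such probe sets, near the highest value of the table, 12.84. Whether the scale is compressed there was not tested.

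Neither transcription factor passed in a day comparison. Xbp1, the factor that IRE1 activates by splicing, averaged 11.16 ± 0.06, 11.19 ± 0.11 and 11.26 ± 0.09 at days 1, 7 and 14 (SD, n = 4). Its changes against day 1 were 0.03 at day 7 (95% interval -0.10 to 0.16) and 0.10 at day 14 (-0.03 to 0.23), with limma adjusted p = 0.811 and 0.303. Atf4, the factor of the integrated stress response, averaged 10.78 ± 0.08, 10.76 ± 0.13 and 10.69 ± 0.16. Its changes were -0.02 (-0.19 to 0.14) and -0.09 (-0.25 to 0.07), with limma adjusted p = 0.901 and 0.467. The intervals leave room for changes of either sign in both genes. Xbp1 was higher at day 14 than at day 1 and than at day 7 in 4 of 4 preparations, by 0.0030 to 0.19 against day 1.

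**Figure D1:**
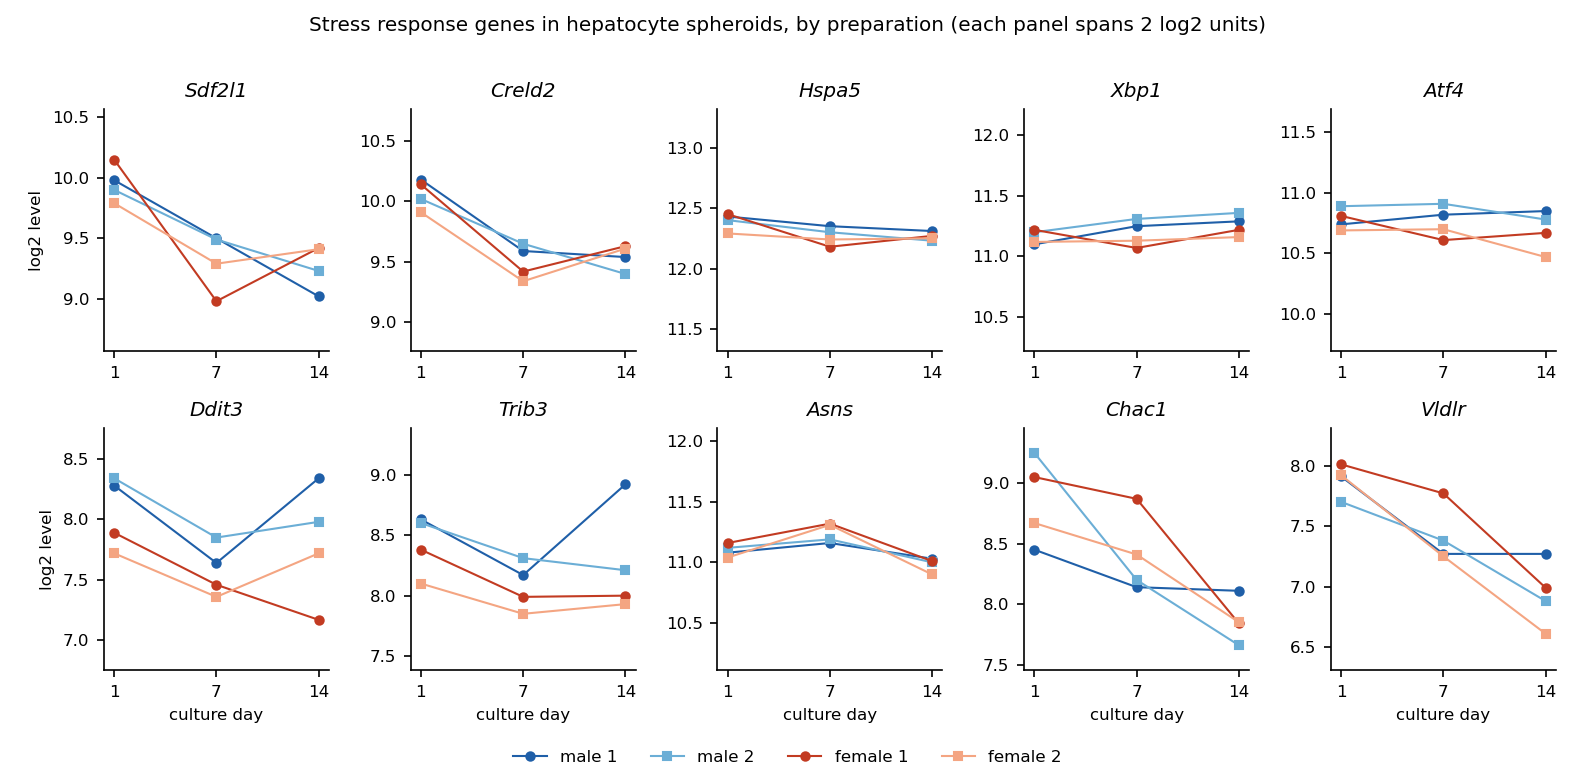
Log2 level of each of the 10 genes (y axis, each panel spanning 2 log2 units) against culture day (x axis), with a line for each of the 4 preparations. Sdf2l1 and Creld2 lie lower at days 7 and 14 than at day 1 in all 4 preparations, while Chac1 and Vldlr are lowest at day 14, Vldlr in male preparation 1 by less than 0.01.

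The ATF4 targets took several courses. Chac1 encodes an enzyme that breaks down glutathione and is induced downstream of ATF4 and CHOP. It stood at 8.45 and 9.25 in the males and 9.05 and 8.67 in the females at day 1. At day 7 it was 8.14 and 8.20 in the males and 8.87 and 8.41 in the females, and at day 14 it was 8.11 and 7.66 in the males and 7.84 and 7.85 in the females. All 4 preparations went down in each week, and every array of day 14 lay below every array of days 1 and 7. The change at day 7 against day 1 was -0.45 ± 0.19 and did not pass (limma, adjusted p = 0.247). At day 14 Chac1 had fallen by 0.99 ± 0.19, to 0.504 times its day 1 level (limma, adjusted p = 0.0117). The size differed between pools, from -0.34 in male preparation 1 to -1.59 in male preparation 2.

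Vldlr, the very low density lipoprotein receptor, is raised through PERK and ATF4 in stressed mouse liver. Its levels were 7.91 and 7.70 in the males and 8.01 and 7.92 in the females at day 1, 7.27 and 7.38 in the males and 7.77 and 7.25 in the females at day 7, and 7.27 and 6.88 in the males and 6.99 and 6.61 in the females at day 14. All arrays of day 14 lay below those of day 1. The change was -0.47 ± 0.14 at day 7 (limma, adjusted p = 0.114) and -0.95 ± 0.14 at day 14, 0.518 times the day 1 level (limma, adjusted p = 0.00396). Over the same days 10 of 15 stellate cell and fibroblast markers and 5 of 9 endothelial markers fell at day 14 against day 1, with median changes of -1.46 and -1.19, and 0 of 9 hepatocyte markers passed, beside 6.8% of all genes that fell. Of 5 cholangiocyte markers 2 rose, and of 12 Kupffer cell markers 1 rose, with median changes of 0.38 and 1.01, beside 900 of all 11861 genes that rose. Of the other cholangiocyte markers, Cldn4 changed by 0.38, Krt7 by -0.56 and Sox9 by -0.22, and none of them passed. At day 7 against day 1, 3 of 15 stellate cell and fibroblast markers fell (median -0.89), beside 1.98% of all genes that fell. There 0 of 9 endothelial markers passed (median -0.35), and 1 of 5 cholangiocyte markers rose, beside 325 of all 11861 genes that rose. The part of those cells in the falls of Vldlr, Chac1, Sdf2l1 and Creld2 was not tested. Of the hepatocyte markers, Alb, Apoa1 and Fgb averaged 12.73, 12.59 and 12.53 at day 1, near the highest value of 12.84. Hnf4a, Cps1 and Tat lay lower, at 11.37, 11.06 and 11.54. Whether the scale is compressed for the brightest markers was not tested.

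Ddit3 encodes CHOP, a transcription factor of prolonged stress. It stood at 8.28 and 8.34 in the males and 7.89 and 7.72 in the females at day 1, 7.64 and 7.85 in the males and 7.46 and 7.36 in the females at day 7, and 8.34 and 7.98 in the males and 7.17 and 7.72 in the females at day 14. All 4 preparations were lower at day 7 than at day 1, and at day 14 they spread from 7.17 to 8.34. The changes against day 1 were -0.48 ± 0.13 at day 7 and -0.25 ± 0.13 at day 14 and did not pass (limma, adjusted p = 0.0854 and 0.258). Trib3, a pseudokinase that CHOP and ATF4 induce, averaged 8.43 ± 0.25, 8.08 ± 0.20 and 8.27 ± 0.45 at days 1, 7 and 14 (SD, n = 4). It was lower at day 7 than at day 1 in 4 of 4 preparations, with changes of -0.35 ± 0.14 and -0.16 ± 0.14 that did not pass (limma, adjusted p = 0.232 and 0.523).

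Asns, the asparagine synthetase, ran against the others in the first week. It stood at 11.08 and 11.12 in the males and 11.16 and 11.04 in the females at day 1, 11.16 and 11.19 in the males and 11.32 and 11.31 in the females at day 7, and 11.03 and 11.0 in the males and 11.01 and 10.90 in the females at day 14. All 4 preparations were higher at day 7 than at day 1 and lower at day 14 than on both earlier days. The changes did not pass: 0.15 ± 0.06 at day 7 against day 1, -0.11 ± 0.06 at day 14 against day 1 and -0.26 ± 0.06 at day 14 against day 7 (limma, adjusted p = 0.205, 0.233 and 0.0997).

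Counted together, 2 of the 10 genes passed at day 7 against day 1, both lower, where 4.72% of all genes passed and 1.98% passed lower (limma, adjusted p under 0.05). At day 14 against day 1, 4 of 10 passed, all lower, beside 14.4% of all genes in either direction and 6.8% lower. At day 14 against day 7 none of the 10 passed, beside 0.489% of all genes. An unadjusted p under 0.05 was reached by 7 of 10 at day 7 against day 1, 4 of 10 at day 14 against day 1 and 3 of 10 at day 14 against day 7, beside 19.5%, 28.6% and 13.7% of all genes. Every array of the later day lay below every array of day 1 for 2 of 10 genes at day 7 and 5 of 10 at day 14, against 5.19% and 7.57% of all genes. The median change of the 10 was -0.40 at day 7 and -0.21 at day 14, and that of all genes was -0.00035 and 0.0070. Both comparisons rest on the same day 1 arrays. In fits without 1 preparation, which have fewer samples, the day 7 change ran from -0.81 to -0.47 for Sdf2l1 and from -0.61 to -0.51 for Creld2. The day 14 change ran from -0.77 to -0.60 for Sdf2l1 and from -0.57 to -0.46 for Creld2. For Chac1 it ran from -1.30 to -0.68 and for Vldlr from -1.02 to -0.87. Leaving out 1 preparation took the call of Sdf2l1 at day 7 without male preparation 1, male 2 or female 1 (adjusted p = 0.186, 0.143 and 0.0891) and that of Creld2 at day 7 whichever was left out (0.0625 to 0.137). At day 14 the calls were lost for Sdf2l1 and Creld2 without male 1 (0.0901 and 0.0549), for Chac1 without male 2, female 1 or female 2 (0.0963, 0.0975 and 0.0651), and for Vldlr without male 1 or male 2 (0.0523 and 0.0590).

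**Figure D2:**
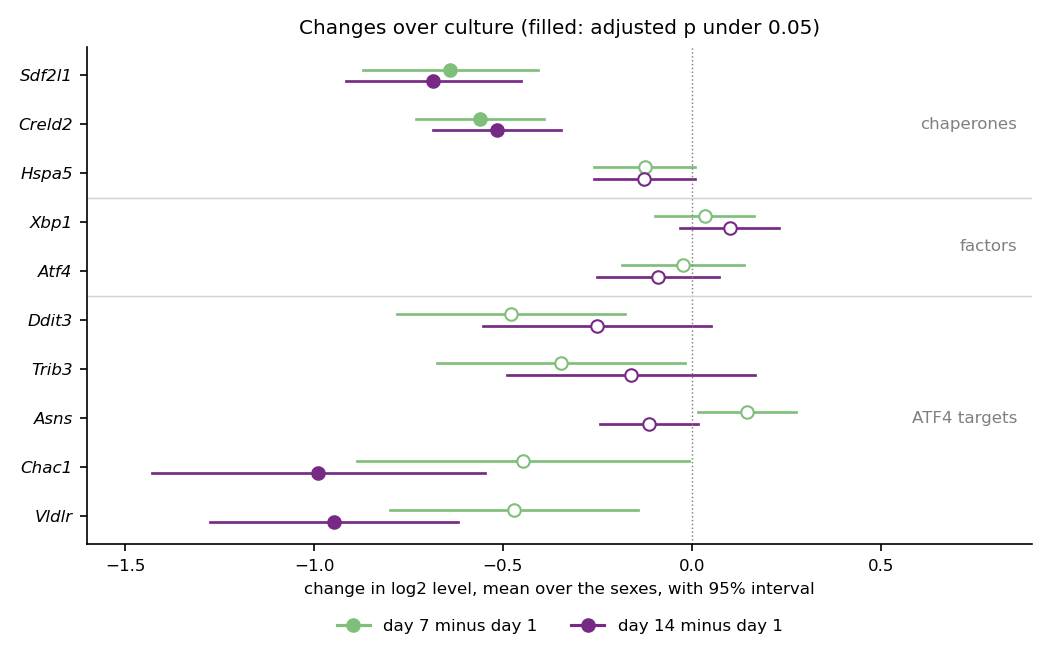
Change in log2 level (x axis) at day 7 minus day 1 and at day 14 minus day 1 for each gene (y axis). Bars are the 95% interval of the limma fit of 12 arrays in 6 groups, without a preparation term. Filled points passed an adjusted p of 0.05: Sdf2l1 and Creld2 at both days, Chac1 and Vldlr at day 14 only.

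Set side by side, the 3 chaperones and the 5 ATF4 targets had median changes of -0.56 and -0.45 at day 7 against day 1, of -0.52 and -0.25 at day 14 against day 1, and of -0.0023 and -0.26 at day 14 against day 7. Passing lower at day 7 were 2 of 3 chaperones and 0 of 5 ATF4 targets, beside 1.98% of all genes. At day 14 the counts were 2 of 3 and 2 of 5, beside 6.8% of all genes. Ddit3, Trib3, Chac1 and Vldlr did not pass at day 7 and were lower than at day 1 in 4 of 4 preparations. Asns was higher in 4 of 4. The share of all genes with the same sign in 4 of 4 was not counted, and 5941 of 11861 had a change below 0. Within preparations the chaperone median minus the ATF4 target median averaged -0.20 ± 0.21 at day 7, -0.18 ± 0.33 at day 14 and 0.23 ± 0.33 at day 14 against day 7 (SD, n = 4). The SD between preparations was larger than each mean difference. At day 7 against day 1 the difference was below 0 in 4 of 4 preparations, -0.02 and -0.05 in the males and -0.47 and -0.25 in the females. At day 14 against day 1 the difference was -0.59 and -0.23 in the males and 0.21 and -0.13 in the females. At day 14 against day 7 it was -0.05 and -0.06 in the males and 0.51 and 0.53 in the females. With 2 preparations per sex and genes chosen with earlier results known, this split between the sexes is a description and was not tested.

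In the second week the chaperones changed with opposite signs in the male and female preparations. From day 7 to day 14 Sdf2l1 changed by -0.48 and -0.26 in the males and by 0.44 and 0.12 in the females. Creld2 changed by -0.05 and -0.25 in the males and 0.21 and 0.27 in the females, and Hspa5 by -0.04 and -0.08 in the males and 0.10 and 0.0071 in the females. Both male preparations were below 0 and both female preparations above it for these 3 genes, which held for 615 of 11861 genes, 5.19%. The difference in change, male minus female, was -0.64 ± 0.20 for Sdf2l1, -0.39 ± 0.15 for Creld2 and -0.11 ± 0.12 for Hspa5, and none passed (limma, adjusted p = 0.999 each, unadjusted p = 0.0121, 0.028 and 0.382). That comparison was added after the values were seen, and it called 0% of all genes. The differences in change at day 7 and at day 14 against day 1 also called 0 of the 10 genes and 0% of all genes, and 0 of the 10 had an unadjusted p under 0.05. Among 20 other genes of protein folding in the endoplasmic reticulum, 7 had both males below 0 and both females above it and 0 the opposite order, with a median change of -0.12 in the males and 0.06 in the females. Among 30 other ATF4 targets 0 had that order and 1 the opposite.

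**Figure D3:**
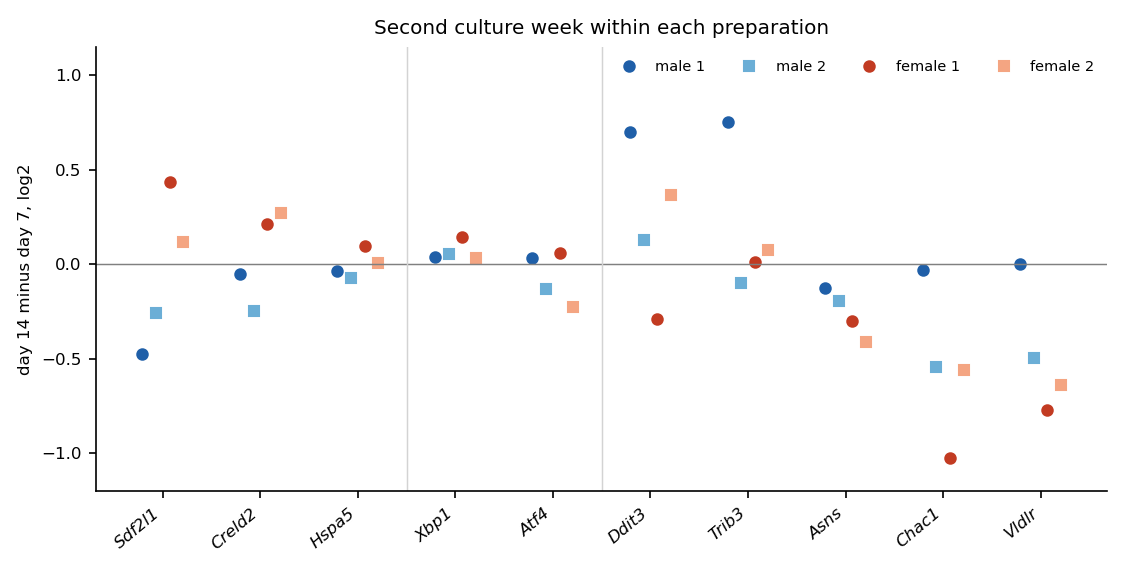
Change in log2 level from day 7 to day 14 (y axis) for each of the 10 genes (x axis), with a point for each preparation. The male preparations lie below 0 and the female ones above it for Sdf2l1, Creld2 and Hspa5, and male preparation 1 lies highest for Ddit3 (0.70) and Trib3 (0.75).

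Ddit3 and Trib3 were higher on every male array than on both female arrays of the same day, which held for 5.81% of all genes. Over all days Ddit3 was higher by 0.52 ± 0.07 and Trib3 by 0.43 ± 0.10, male minus female, and neither passed (limma on the 2 male against 2 female preparation means, adjusted p = 0.0753 and 0.142, unadjusted p = 0.000864 and 0.0109). None of the 10 genes passed in that comparison, beside 0.177% of all genes. An unadjusted p under 0.05 was reached there by 2 of the 10, beside 19.8% of all genes. The differences of Ddit3 within days were 0.50 at day 1, 0.34 at day 7 and 0.71 at day 14 (limma, adjusted p = 0.295, 0.497 and 0.118), and those of Trib3 were 0.38, 0.32 and 0.60 (adjusted p = 0.475, 0.562 and 0.218). Within days 0 of 10 genes passed, beside 0.767%, 0.354% and 1.06% of all genes at days 1, 7 and 14, and 1, 2 and 3 of the 10 had an unadjusted p under 0.05, beside 13.5%, 13.2% and 14.9% of all genes. The second probe set of Ddit3, dimmer than the first, read 7.23 and 7.24 in the males and 6.72 and 6.87 in the females at day 1, 6.78 and 6.72 in the males and 6.72 and 6.45 in the females at day 7, and 7.57 and 7.02 in the males and 6.51 and 6.87 in the females at day 14. Its male arrays were above both female arrays at days 1 and 14, and at day 7 male preparation 2 and female preparation 1 both read 6.72. Atf4 was 0.17 higher in males over all days (limma, adjusted p = 0.256), and the differences of the other 7 genes lay between -0.15 and 0.10.

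Part of the wider folding machinery fell as well. Of 20 further genes of folding in the endoplasmic reticulum, 0 rose and 2 fell at day 7, and 0 rose and 7 fell at day 14 against day 1, with median changes of -0.17 and -0.15. Of all genes 1.98% fell at day 7 and 6.8% at day 14. Ero1b, an oxidase that drives disulfide formation, averaged 9.32 ± 0.08, 8.95 ± 0.04 and 8.70 ± 0.14 at days 1, 7 and 14 (SD, n = 4), and fell by 0.37 ± 0.07 at day 7 and by 0.62 ± 0.07 at day 14 (limma, adjusted p = 0.0258 and 0.0012). Dnajc3, a co-chaperone that also inhibits eIF2 kinases, fell by 0.27 ± 0.06 and 0.35 ± 0.06 (limma, adjusted p = 0.0462 and 0.00822), the first with adjusted p = 0.0779 once the preparation was a block. Hyou1, a large Hsp70-like chaperone, fell by 0.25 ± 0.06 at day 14 (limma, adjusted p = 0.0375, and 0.0585 after a second quantile normalization), and Creld1, the relative of Creld2, by 0.25 ± 0.07 (0.044, and 0.0786 with the block).

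Of 33 genes of protein entry and disposal at the endoplasmic reticulum, 0 passed at day 7, and 1 rose and 4 fell at day 14, with medians of -0.03 and -0.04. Calls in either direction covered 14.4% of all genes at day 14, and the counts of this list and of the traffic and synthetase lists that follow lie near or below that share. Derl3, a derlin of the disposal channel, averaged 7.88 ± 0.45, 6.77 ± 0.41 and 6.43 ± 0.48 and fell by 1.45 ± 0.29 (limma, adjusted p = 0.0133). Syvn1, the ubiquitin ligase HRD1, fell by 0.37 ± 0.08 and Selenok, a selenoprotein of the membrane, by 0.28 ± 0.07 (limma, adjusted p = 0.0193 and 0.0309, the second 0.0564 with the block). Spcs1, a subunit of the signal peptidase, rose by 0.24 ± 0.06 (0.0355, and 0.0596 with the block). Of 23 genes of vesicle traffic 0 passed at day 7, and at day 14 the KDEL receptor Kdelr3 rose by 0.76 ± 0.15 and the cargo receptor subunit Mcfd2 fell by 0.25 ± 0.06 (limma, adjusted p = 0.0135 and 0.0215).

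Of 30 further ATF4 targets, 0 rose and 1 fell at day 7, and 1 rose and 8 fell at day 14, with medians of -0.09 and -0.12, beside 1.98% and 6.8% of all genes that fell. Phgdh, the first enzyme of serine synthesis, averaged 9.91 ± 0.21, 9.55 ± 0.16 and 9.0 ± 0.13 and fell by 0.91 ± 0.12 at day 14 (limma, adjusted p = 0.00195). Gpt2, a mitochondrial alanine aminotransferase, fell by 0.66 ± 0.13 and Ero1a, an oxidase of disulfide formation that CHOP induces, by 0.53 ± 0.07 (limma, adjusted p = 0.0127 and 0.00191). Ero1a had fallen by 0.32 ± 0.07 at day 7 (0.0402, and 0.0578 with the block). Slc7a11, the cystine transporter, rose by 0.67 ± 0.10 at day 14 against day 1 and by 0.62 ± 0.10 against day 7 (limma, adjusted p = 0.00388 and 0.0453, the second 0.0622 with the block), opposite to most of the list that passed. Cth, the last enzyme of the pathway from methionine to cysteine, fell by 0.48 ± 0.07 at day 14 against day 7 (0.0323).

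Of 18 aminoacyl-tRNA synthetases, which ATF4 also acts on, 1 fell at day 7 and 2 at day 14: Wars by 0.27 ± 0.06 and 0.31 ± 0.06 (limma, adjusted p = 0.0351, 0.0566 with the block, and 0.00833) and Cars by 0.27 ± 0.07 at day 14 (0.0431, and 0.0733 with the block). Of all genes 4.72% passed at day 7 and 14.4% at day 14 in either direction. Of 16 further sensors and regulators, 1 rose and 1 fell at day 7, and 1 rose and 3 fell at day 14. Creb3l3, a hepatocyte factor anchored in the endoplasmic reticulum and activated like ATF6, rose by 0.38 ± 0.09 at day 7 and 0.56 ± 0.09 at day 14 (limma, adjusted p = 0.0486, which was 0.0608 with the block and 0.0563 with centred arrays, and 0.00449). At day 14 Ern1, which encodes IRE1 alpha, fell by 0.42 ± 0.09 and the double-stranded RNA kinase Eif2ak2 by 0.32 ± 0.09 (limma, adjusted p = 0.0148 and 0.0438). Dnajc3 stands in this list too. In these 6 lists 5 genes passed at day 7, or 2 with the block. Of the calls named, those of Ero1b and Phgdh at day 14 stood whichever preparation was left out. Lost were those of Derl3, Gpt2, Slc7a11 and Ero1a at day 14 against day 1 without male 1 (adjusted p up to 0.162) or male 2 (up to 0.147), Kdelr3 without male 2 or female 2 (0.0979 and 0.124), Creb3l3 at day 14 without female 1 or female 2 (0.0610 and 0.0554), Ern1 without male 1, male 2 or female 2 (0.139, 0.162 and 0.0650), and all others whichever was left out (0.0551 to 0.386).

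Beyond the lists, genes were taken by the ER stress element shown above for Hspa5 and Creld2, a choice made after member changes were seen. Of 19 measured genes whose promoter window held it, 3 fell and 0 rose at day 7, and 8 fell and 2 rose at day 14 against day 1. Lower calls were 15.8% at day 7 and 42.1% at day 14, beside 1.98% and 6.8% of all genes. Creld2 is 1 of them. Without Creld2 and Hspa5, 7 of 17 fell at day 14, Calr, Derl3, Dnajc3, Ero1b, Hsp90b1, Pdia6 and Syvn1, of which 5 stand in the folding list and 2 in the disposal list, so the counts overlap. The Hsp90 of the endoplasmic reticulum, Hsp90b1, changed by -0.24, the disulfide isomerase Pdia6 by -0.22 and calreticulin, Calr, by -0.21 (limma, adjusted p = 0.0208, 0.0388 and 0.0434). With the block adjusted p was 0.0700 for Pdia6 and 0.0516 for Calr, which a second quantile normalization took to 0.0523, and the calls of Hsp90b1, Pdia6 and Calr were lost whichever preparation was left out (0.111 to 0.294). Spats2l rose by 0.81 and Zfp57, a zinc finger protein, by 0.70 (0.0156 and 0.00663). The call of Spats2l was lost without male 1, male 2 or female 2 (0.110, 0.0892 and 0.0742) and that of Zfp57 without male 1, male 2 or female 1 (0.0572, 0.0600 and 0.0559). Xlr3a, Xlr3b and Xlr3c are near-identical copies whose probe sets may read each other, and none passed. The count at day 14 was 1, 2, 4 and 4 without male 1, male 2, female 1 and female 2, against 10 with all, and at day 7 it was 0 to 1 against 3.

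**Figure D4:**
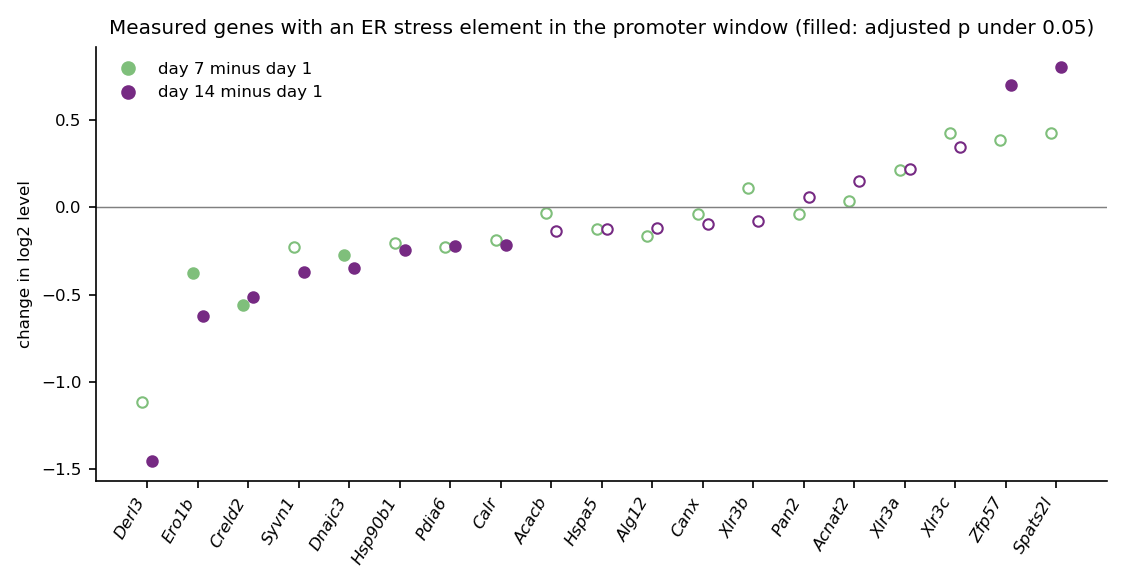
Change in log2 level (y axis) at day 7 minus day 1 and at day 14 minus day 1 for the 19 measured genes with an ER stress element in the promoter window (x axis, ordered by the day 14 change). Filled points passed an adjusted p of 0.05: at day 14, 8 genes lie below 0 and Zfp57 and Spats2l above it.

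Over the 12 arrays, which share 4 preparations and the course of culture, Sdf2l1 and Creld2 correlated at r = 0.925, Creld2 and Hspa5 at 0.876, Ddit3 and Trib3 at 0.889, and Chac1 and Vldlr at 0.845. The ATF4 targets thus held 2 pairs, and r between Ddit3 and Chac1 was 0.231. Likeness to the mean of each set was ranked with the 10 genes and predicted or clone-named genes left out, also from the counts over 0.9. The genes most like the centred mean of the 3 chaperones were Hsp90b1 (r = 0.953), Hyou1 (0.944), Slfn2 (0.939), Apol9a (0.936) and Mfap2 (0.925), among 16 genes over 0.9. Slfn2 and Apol9a, both known in mouse as interferon-induced genes, fell at both days: Slfn2 changed by -1.02 at day 7 and -1.12 at day 14, and Apol9a by -1.49 and -1.81 (limma, adjusted p up to 0.00219). Most like the mean of the 5 ATF4 targets were Ube2j1 (0.927), a ubiquitin-conjugating enzyme of the endoplasmic reticulum, Sdc4 (0.922), Asb6 (0.917), B3gnt2 (0.915) and Syvn1 (0.908), among 10 genes over 0.9. These are descriptions over 12 arrays and carry no test.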

How the data were processed

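Expression was measured in 12 arrays of mouse hepatocyte spheroids. The values are the log2 levels the authors deposited, 1 per probe set and array, and per the submitters' processing notes RMA, Transcriptome Analysis Console 4.0 and Partek 7.0 were used, in an order not given. The label was biotin after the WT PLUS kit, per the labels' protocols. Neither the array build nor a filter on low values is given in the sources used here, and 0 columns were left unused. All 13081 probe sets reached 4.79 on some array. Of them 11889 had 1 symbol in the platform annotation, 1192 none and 0 several, and keeping the highest mean for 19 repeated symbols left 11861 genes. The 10 genes reported are all among them.

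Groups of sex and day came from the sample titles. The arrays were fitted with limma 3.58.1 in R 4.3.3 (lmFit, contrasts.fit and eBayes over 6 groups, two-sided, Benjamini-Hochberg over all genes), with version 1.17.8 of data.table, and the fit was tested on simulated data. A day change is the mean of the changes in both sexes, and sex over all days was fitted on the 4 preparation means. Errors of changes are standard errors and errors of levels are SDs. Precision is limited by the number of arrays, with median standard errors of 0.0946 for day changes and 0.076 for sex over all days. No scan or slide batch is named in the labels. The same pool was sampled at each day, so preparations pair the arrays by design, but the main fit held no term for the preparation. Deviations of the same preparation from its group means correlated at 0.0359 to 0.324. Alternatives were the preparation as a fixed or random block, arrays centred on their medians, a second quantile normalization, a trended and robust spread, genes with a mean under 6 left out, every probe set tested, and each preparation left out.

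The members and lists were chosen with earlier results of these data known, so a count over them is a description. Named were all 10 genes, up to 4 further genes per list and comparison ranked by size of change among those past the threshold, and the 5 genes most like each mean. Genes chosen by their promoter were named after their values were seen. Promoter windows came from RefSeq (GRCm38.p6). Probe sets were not placed on the genome.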

Additional observations from a re-analysis of the deposited data

Results flagged for a closer look

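In the second week, from day 7 to day 14, the change had opposite signs in the male and female preparations for 3 chaperones. Both male preparations went down and both female preparations went up, an order that held for 5.19% of all genes. Some of these changes were small, such as 0.0071 in female preparation 2 and -0.04 in male preparation 1 for Hspa5, and -0.05 in male preparation 1 for Creld2. The difference in change, male minus female, was -0.64 for Sdf2l1, -0.39 for Creld2 and -0.11 for Hspa5 on the log2 scale. The difference itself was tested with limma, in a comparison added after the values were seen, and it did not pass for any of the 3 (adjusted p = 0.999 each). Leaving out 1 preparation gave -0.80 to -0.49 for Sdf2l1, -0.49 to -0.29 for Creld2 and -0.15 to -0.06 for Hspa5. Each sex is represented by 2 pools.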

How the results depend on the processing

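Making the preparation a fixed or random block changed no call among the 10 genes, whose counts stayed at 2, 4 and 0 for day 7 against day 1, day 14 against day 1 and day 14 against day 7. The fixed block gave 2 genes in place of 5 in the wider lists at day 7. With a trended and robust spread 5 of the 10 passed at day 7 against day 1, 1 at day 14 against day 7, 3 between the sexes over all days and 1 between the sexes at day 14. The genes gained were Ddit3, Asns and Vldlr at day 7 (adjusted p = 0.0156, 0.0478 and 0.0299), Asns at day 14 against day 7 (0.00342), and Ddit3, Trib3 and Atf4 between the sexes (0.00196, 0.0128 and 0.0487). Hspa5 also passed at day 14 (0.0284). The same setting gave 16 and 6 genes in the wider lists at day 7 against day 1 and day 14 against day 7, and 8 genes with an ER stress element at day 7. Leaving out genes with a mean under 6 gave 1 of the 10 between the sexes over all days (Ddit3, 0.0256), 9 genes in the wider lists and 6 with an ER stress element at day 7. Fits without 1 preparation, which have fewer samples, gave 0 to 1 of the 10 at day 7 and 1 to 3 at day 14, 0 to 1, 3 to 10 and 0 to 0 in the wider lists over the 3 day comparisons (5, 28 and 2 with all), and 0 to 1 and 1 to 4 with an ER stress element at days 7 and 14.

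Over all genes the counts were 560 at day 7, against 956 with the trended spread and 40 to 75 without a preparation, and 1706 at day 14, against 494 to 826. At day 14 against day 7 they were 58, against 309 with the trended spread, 101 with the fixed block, 103 without dim genes and 0 to 8 without a preparation. Between the sexes they were 21 over all days, against 974 and 282 with the trended spread and without dim genes, and 3 to 26 without a preparation. At days 1, 7 and 14 they were 91, 42 and 126, against 292, 178 and 411 with the trended spread, 3 to 21, 4 to 18 and 11 to 113 without a preparation, and 70 at day 7 without dim genes. The sex difference in the change at day 14 against day 1 called 0 genes, against 14 with the trended spread, 1 with the fixed block and 17 without male 2, and that at day 14 against day 7 called 0, against 1 without male 2.

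Changes that turned sign lay within 0.15 of 0 in the fit that turned them and passed in no fit. Over the fits without 1 preparation they ranged, at day 7 against day 1, over -0.0054 to 0.0723 for Xbp1 and -0.0748 to 0.0283 for Atf4, and at day 14 against day 1 over -0.33 to 0.0110 for Trib3. At day 14 against day 7 they ranged over -0.12 to 0.0344 for Sdf2l1 (above 0 at 0.0095 without male 1 too), -0.0045 to 0.0955 for Creld2, -0.0246 to 0.0200 for Hspa5 (0.0073 without male 2), -0.14 to 0.0048 for Atf4 and -0.0281 to 0.40 for Trib3. Between the sexes over all days they ranged over -0.0087 to 0.0337 for Sdf2l1 (-0.0086 with centred arrays), -0.0650 to 0.0155 for Asns and -0.19 to 0.14 for Vldlr (0.0563 without male 2). The chaperone minus ATF4 target difference ranged over -0.26 to -0.11 at day 7, -0.32 to -0.05 at day 14 and 0.14 to 0.33 at day 14 against day 7 without a preparation. The cause of these shifts was not tested.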

Other observations

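Genes with the CEBP-ATF or the unfolded protein response element gave shares of lower calls nearer to that of all genes at day 14 against day 1. Of 276 measured genes with the CEBP-ATF response element in the promoter window, 26 fell and 22 rose (limma, adjusted p under 0.05), 9.42% lower beside 6.8% of all genes. Of 102 genes with the unfolded protein response element 7 fell and 17 rose, 6.86% lower. More of these genes thus rose than fell, beside 900 that rose and 806 that fell of all 11861 genes. Of 8 genes with the second form of the ER stress element 0 fell and 1 rose. Of 29 further ATF4 targets with a window, 6 held the CEBP-ATF response element: Atf3, Fgf21, Jdp2, Nupr1, Pycr1 and Slc7a11. In the folding list 3 of 20 held it, Cdnf, Cnpy2 and Txndc5, beside 4.51% of all genes with a window. Of the same 20, 6 held the ER stress element: Calr, Canx, Dnajc3, Ero1b, Hsp90b1 and Pdia6. That element stood in 0 of the 29 ATF4 targets and in 0.137% of all genes. The unfolded protein response element stood in 2 of 20 folding genes and 1 of 29 ATF4 targets, beside 0.714% of all genes. The second form of the ER stress element stood in 1 of 20 and 0 of 29, beside 0.0444%. The counts were made after the member changes were seen and carry no test of the lists.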
